A study of Mus musculus with 10 samples.

Results

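Mast cells and eosinophils are granule-bearing leukocytes of the gut wall, and 10 genes that mark them (Cpa3, Mcpt1, Mcpt2, Mcpt4, Cma1, Tpsb2, Kit, Epx, Prg2 and Ms4a2) were followed in the jejunum of mouse pups that produce interleukin-23 (IL-23) in the skin. They were picked by gene symbol from the 24062 genes of the count tables, and all 10 symbols were present. The 5 KSR23 and 5 wild-type (WT) libraries each came from C57BL/6 jejunum on postnatal day 5. KSR23 mice carry a transgene for both IL-23 subunits, p19 and p40, behind a floxed stop cassette in the ROSA26 locus, and a Cre recombinase under the keratin 14 promoter, which is active in keratinocytes, removes the stop. The study used WT littermates as controls. The comparison asks which of these genes differ in the jejunum when IL-23 is made by K14-expressing cells.

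Mast cell progenitors leave the bone marrow, settle in tissues and mature there under stem cell factor, the ligand of the receptor tyrosine kinase Kit. Mature cells store serine proteases and a carboxypeptidase in granules and release them when antigen crosslinks IgE on the high-affinity IgE receptor. In mice, mucosal mast cells of the gut epithelium and lamina propria are known for the chymases Mcpt1 and Mcpt2, and connective tissue mast cells of the submucosa, muscle and serosa for Mcpt4, Cma1, the tryptase Tpsb2 and the carboxypeptidase Cpa3. Eosinophils carry eosinophil peroxidase (Epx) and major basic protein (Prg2), and are drawn to the gut by eotaxins.

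The chymase genes lie in 1 cluster on chromosome 14. In mm10 coordinates with GENCODE M21 gene models, Cma1 occupied 14:55941451-55944675 on the minus strand, Mcpt1 14:56017971-56020384 on the plus strand, Mcpt2 14:56042041-56044642 on the plus strand and Mcpt4 14:56059629-56062313 on the minus strand. Cpa3 (3:20215620-20242181, minus), Tpsb2 (17:25366305-25369098, plus), Kit (5:75574916-75656722, plus), Epx (11:87864000-87875536, minus), Prg2 (2:84980461-84983632, plus) and Ms4a2 (19:11615523-11623719, minus) lie on other chromosomes. The counts are sums over the exons of each gene. Of the possible 75-base reads from each gene, 2.52% in Mcpt4, 1.67% in Cma1 and 1.23% in Ms4a2 were identical to a stretch of another gene (Cma2, Gm48934 and Ms4a4b), and the share was 0 in the other members, so Mcpt1 and Mcpt2 counts were not mixed by identical sequence.

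RefSeq promoter sequence of build GRCm38.p6 was at hand for 7 of the 10 members. The 3 shown here are those that held both of the 2 searched motifs in the 150 bases before the transcription start. The motifs are in capitals, and each sequence runs 5′ to 3′ on the strand of its gene. The chymase gene Cma1 held neither motif in its 150 bases, and Mcpt2, Tpsb2 and Prg2 had no promoter entry. Cpa3 is at chr3:20242182-20242331 (minus), Mcpt1 at chr14:56017814-56017963 (plus) and Mcpt4 at chr14:56062311-56062460 (minus).
Cpa3: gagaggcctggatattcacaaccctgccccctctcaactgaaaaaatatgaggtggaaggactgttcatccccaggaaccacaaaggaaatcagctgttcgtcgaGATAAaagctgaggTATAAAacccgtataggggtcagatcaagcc
Mcpt1: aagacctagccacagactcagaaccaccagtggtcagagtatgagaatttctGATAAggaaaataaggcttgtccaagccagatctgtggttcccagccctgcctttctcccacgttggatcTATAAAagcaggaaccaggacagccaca
Mcpt4: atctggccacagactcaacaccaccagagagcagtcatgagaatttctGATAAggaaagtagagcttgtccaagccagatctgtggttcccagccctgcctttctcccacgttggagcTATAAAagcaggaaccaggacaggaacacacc

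The Mcpt1 and Mcpt4 promoters matched at 131 of 154 aligned positions (85.1%), and the other pairs of the 7 member promoters at 37.0% to 49.4%. The first motif in capitals, GATAA, is the core that Gata1 and Gata2 proteins recognize, and it began 45 bases before the start in Cpa3, 98 in Mcpt1 and 102 in Mcpt4. The other, TATAAA, the core promoter element that positions transcription, began 31, 28 and 32 bases before it. Within 250 bases, searched on both strands, 5 of 7 member promoters held the first motif and 4 of 7 held the other motif, against 23.02% and 12.97% of 27025 promoters of the same length. Neither motif was in the Kit window. These matches describe letters and were not measured as binding.

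Each library began from 100 pg of total RNA. Gene totals were 25.5 to 32.0 M (1 M is 1000000 counts) in WT and 31.2 to 60.9 M in KSR23, so that 3 counts equal 0.0427 to 0.119 CPM (counts per 1000000 counts of the library). Replicates 4 and 5 lay between the others of their group. They were the highest or lowest of the 5 in 8.54% to 18.4% of 9737 genes above 5 CPM, against 45.7% to 75.6% for replicates 1 to 3 and 40% if the libraries were exchangeable. Results are therefore also given on replicates 1 to 3 alone. A second feature of the libraries touches every result here. Short genes were lower in KSR23 as a class: the median log2 fold change (KSR23 over WT throughout, called the log2 change from here on) was -0.57 in 812 genes with 1000 to 1500 exon bases, -0.68 in 260 genes of 750 to 1000 bases, -0.38 in 1083 genes of 1500 to 2000 bases and 0.23 in 6099 genes of 5000 bases or more. The log2 level of genes below 1500 bases relative to genes of 5000 bases or more, each as the median deviation from the mean of the 10 libraries, was 0.12 to 0.77 in WT and -0.67 to -0.10 in KSR23, with no overlap. The 7 members that were called lower are 838 to 1594 exon bases long and Kit has 8911. Results are therefore also given from a fit that removes the trend with exon length from each library.

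Of the 9 members with enough counts to test, 7 were lower in KSR23 (Cpa3, Mcpt1, Mcpt2, Mcpt4, Cma1, Tpsb2 and Prg2), none was higher, and Kit and Ms4a2 were not called by edgeR's likelihood ratio test at an adjusted p of 0.05. At an unadjusted p under 0.05 the same test had 1 member higher (Kit). Of all 17632 genes tested, 8.76% were called lower and 9.73% higher. Among genes of 1000 to 1500 exon bases 23.8% were called lower, among those of 750 to 1000 bases 29.6%, and among those of 1500 to 2000 bases, the class of Cpa3 and Tpsb2, 17.5%. After correction for exon length, 5 of the 9 were called lower (Cpa3, Mcpt1, Mcpt2, Mcpt4 and Prg2) and none higher, where 7.06% of all genes were called lower and 7.69% higher. The quasi-likelihood F test called 6 of the 9 lower without the correction (all but Tpsb2), where 6.91% of all genes were lower and 8.47% higher, and 2 with it (Mcpt1 and Mcpt2), where 4.99% of all genes were lower and 5.9% higher. The median log2 change of the 9 was -1.68, and that of all genes 0.03. In 4 members (Cpa3, Mcpt1, Mcpt2 and Prg2) every KSR23 library lay below every WT library, as did 6.99% of all genes, with 7.41% fully above. On replicates 1 to 3 alone 3 members were called lower (Cpa3, Mcpt1 and Mcpt2), where 1.35% of genes were lower and 2.01% higher. The quasi-likelihood F test on them called 0 members, and called 0.238% of all genes lower and 0.574% higher. At an unadjusted p under 0.05 it had 4 members lower. All shares of all genes are at an adjusted p of 0.05, and none was computed to set beside the counts at an unadjusted p. The tissue was sequenced in bulk, so fewer mast cells and less RNA per mast cell cannot be told apart. The p-values measure the spread between these libraries.

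**Figure D1:**
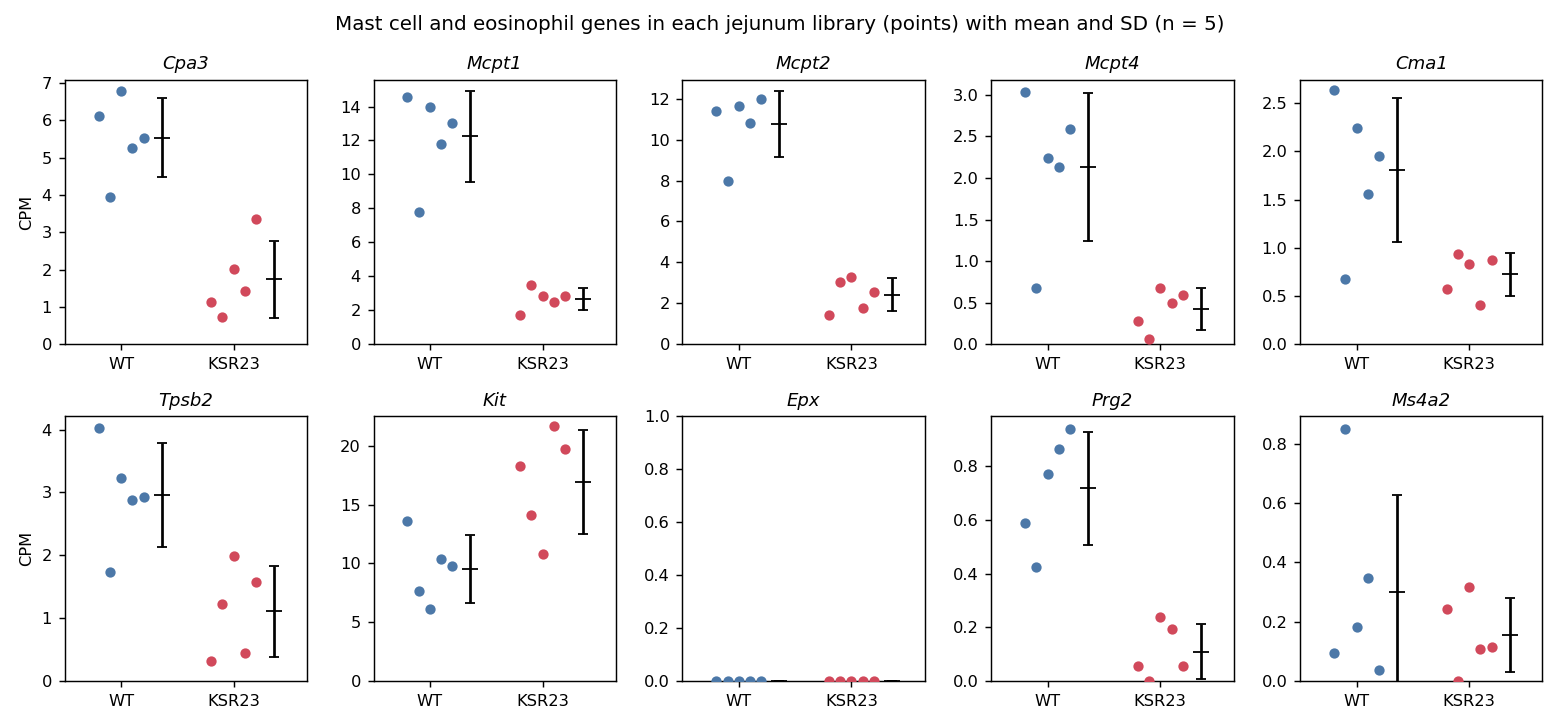
CPM of the 10 members (1 panel each, linear axes from 0) in the 5 WT and 5 KSR23 libraries as points, with the mean and SD beside them. The KSR23 points of Cpa3, Mcpt1, Mcpt2 and Prg2 sit below all WT points, Kit points overlap and sit higher on average in KSR23, and Epx is at 0 throughout.

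The mucosal chymases were the most abundant of the granule genes and had the smallest adjusted p-values of all members. Mcpt1, the beta-chymase of intraepithelial mast cells, was at 14.5, 7.81, 13.98, 11.8 and 13.03 CPM in WT replicates 1 to 5 (221 to 470 counts). In KSR23 it was at 1.71, 3.48, 2.86, 2.51 and 2.85 CPM (72 to 142 counts). The highest KSR23 library was below the lowest WT library. The means were 12.2 ± 2.68 and 2.68 ± 0.648 CPM (SD, n = 5 each), a 4.56-fold difference, with a log2 change of -2.19 (SE 0.31, adjusted p = 1.27e-09 by likelihood ratio, 0.000265 by quasi-likelihood). Corrected for exon length (1014 bases), the log2 change was -1.57 (SE 0.30, adjusted p = 8.01e-06, quasi-likelihood 0.00136). On replicates 1 to 3 alone it was -2.14 (adjusted p = 0.0164, edgeR likelihood ratio test).

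Mcpt2, the other member of the chymase family in mucosal mast cells, followed it closely. Its WT libraries held 11.4, 7.96, 11.6, 10.8 and 12.0 CPM and its KSR23 libraries 1.41, 3.06, 3.30, 1.79 and 2.57 CPM. The groups were apart again, and WT replicate 2 was the lowest WT library in both genes. The mean fell from 10.8 ± 1.62 to 2.43 ± 0.811 CPM (SD, n = 5 each), 4.43-fold, and the log2 change was -2.16 (SE 0.32, adjusted p = 9.04e-09 by edgeR likelihood ratio, 0.000437 by quasi-likelihood). Corrected for length (1061 bases) it was -1.57 (SE 0.30, adjusted p = 1.24e-05, quasi-likelihood 0.00173). Over the 10 libraries the log2 levels of Mcpt1 and Mcpt2 had a Pearson r of 0.99. This r includes the difference between the groups and the depth they share, and is a description.

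Cpa3, the mast cell carboxypeptidase, was at 6.13, 3.96, 6.79, 5.27 and 5.52 CPM in WT. In KSR23 it was at 1.14, 0.742, 2.03, 1.42 and 3.36 CPM (23 to 119 counts). KSR23 replicate 5 came nearest to the WT range and stayed below its lowest library. The means were 5.53 ± 1.06 and 1.74 ± 1.02 CPM (SD, n = 5 each), 3.19-fold apart, with a log2 change of -1.68 (SE 0.40, adjusted p = 0.00078 by edgeR likelihood ratio, 0.0116 by quasi-likelihood). Corrected for length (1517 bases) it was -1.21 (SE 0.40, adjusted p = 0.0222), and the quasi-likelihood F test with the same correction gave an adjusted p of 0.0538, above the threshold. On replicates 1 to 3 alone the log2 change was -2.08 (adjusted p = 0.0324, edgeR likelihood ratio test). The 5 genes whose log2 levels over the 10 libraries were most like those of Cpa3, among 12888 with a mean of 1 CPM or more, were LOC100504703, Slamf9, Aspa, Fam183b and Ly6c1 (Pearson r 0.98, 0.97, 0.97, 0.97 and 0.96).

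The chymases and the tryptase of connective tissue mast cells were less abundant and more variable. Mcpt4, regarded as the functional counterpart of human chymase, was at 3.03, 0.672, 2.24, 2.13 and 2.59 CPM in WT and at 0.284, 0.064, 0.676, 0.496 and 0.593 CPM in KSR23 (2 to 28 counts). WT replicate 2, at 19 counts, was the lowest WT library by a wide gap and was level with the highest KSR23 library. The mean fell from 2.13 ± 0.890 to 0.423 ± 0.248 CPM (SD, n = 5 each), 5.05-fold, and the log2 change was -2.34 (SE 0.54, adjusted p = 0.000499 by edgeR likelihood ratio, 0.0141 by quasi-likelihood). Corrected for length (1108 bases) it was -1.73 (SE 0.53, adjusted p = 0.0138, quasi-likelihood 0.0556). On replicates 1 to 3 alone it was -2.51 with an adjusted p of 0.13 (edgeR likelihood ratio test), above the threshold.

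Cma1, an alpha-chymase, was at 2.63, 0.672, 2.24, 1.56 and 1.95 CPM in WT and 0.569, 0.935, 0.835, 0.407 and 0.875 CPM in KSR23. WT replicate 2 lay within the KSR23 range, and the other WT libraries lay above it. Its log2 change, -1.34 (SE 0.43, adjusted p = 0.0168 by edgeR likelihood ratio, 0.0443 by quasi-likelihood), went with means of 1.81 ± 0.748 and 0.724 ± 0.226 CPM (SD, n = 5 each), 2.50-fold apart. Corrected for length (1090 bases) it was -0.73 (SE 0.41, adjusted p = 0.249), so the call ended. It also ended when WT replicate 1, 3 or 5 or KSR23 replicate 1 or 4 was left out, with adjusted p of 0.0683, 0.0557, 0.0523, 0.0523 and 0.0772 by the same test.

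Tpsb2, the tryptase mouse mast cell protease 6, was at 4.02, 1.73, 3.23, 2.88 and 2.93 CPM in WT and 0.313, 1.23, 1.99, 0.443 and 1.58 CPM in KSR23. KSR23 replicate 3 lay above WT replicate 2, so the groups overlapped. The mean fell from 2.96 ± 0.825 to 1.11 ± 0.722 CPM (SD, n = 5 each), 2.67-fold, with a log2 change of -1.43 (SE 0.50, adjusted p = 0.0301 by edgeR likelihood ratio, 0.0653 by quasi-likelihood). Corrected for length (1594 bases) it was -1.04 (SE 0.49, adjusted p = 0.153), above the threshold. Leaving out WT replicate 1, 3, 4 or 5 or KSR23 replicate 1, 2 or 4 ended the call too, with adjusted p from 0.0578 to 0.106 by the likelihood ratio test.

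Mcpt1 and Mcpt2 made up most of the summed level of the 5 chymase and tryptase members in both groups. They were 72.8%, 83.7%, 76.9%, 77.5% and 77.0% of the summed CPM of Mcpt1, Mcpt2, Mcpt4, Cma1 and Tpsb2 in WT replicates 1 to 5. In KSR23 they were 72.8%, 74.6%, 63.8%, 76.2% and 64.0%. The ranges overlapped, while the summed CPM of the 5 proteases, 18.8 to 35.6 in WT and 4.28 to 9.66 in KSR23, did not. Per kilobase of exon, the order in WT by mean CPM per kb was Mcpt1 (12.1), Mcpt2 (10.1), Cpa3 (3.65), Mcpt4 (1.93), Tpsb2 (1.86), Cma1 (1.66), Kit (1.07), Prg2 (0.856), Ms4a2 (0.107) and Epx (0). Neighbours in this order from Mcpt4 to Prg2 differed by less than the larger of their SDs between WT libraries, as did Mcpt1 and Mcpt2. In KSR23 Kit (1.90) came next after Mcpt1 (2.65) and Mcpt2 (2.29) and ahead of Cpa3 (1.14). There Mcpt2 differed from Mcpt1 and from Kit by less than its SD between KSR23 libraries (0.764), so the order of these genes is not resolved.

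**Figure D2:**
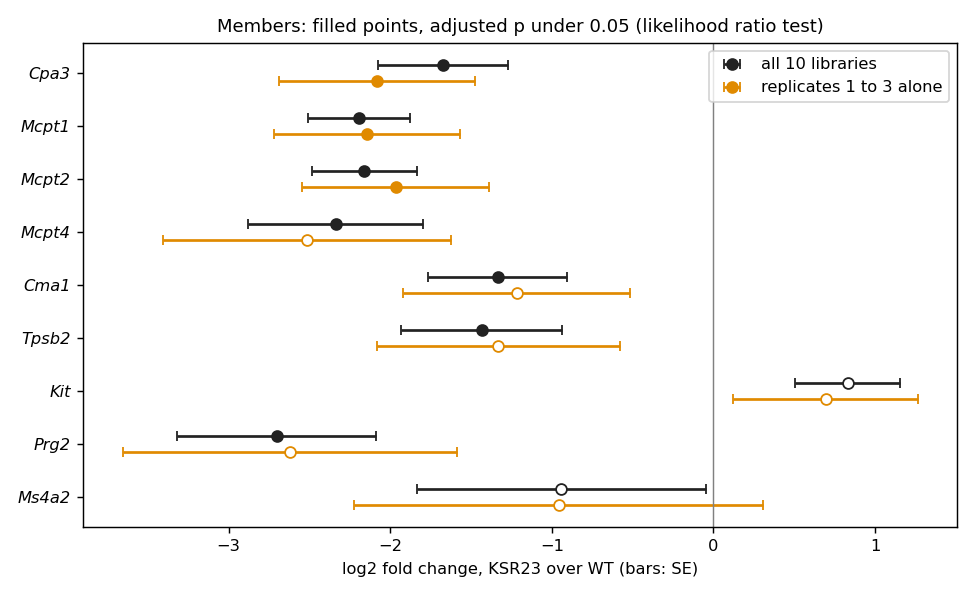
Log2 fold change (KSR23 over WT) with its SE for the 9 tested members, from all 10 libraries (dark) and from replicates 1 to 3 alone (orange), with filled points where the adjusted p was under 0.05. With all libraries 7 points are filled, at -1.34 to -2.70, and with replicates 1 to 3 alone 3 are (Cpa3, Mcpt1 and Mcpt2), while the estimates themselves move little.

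Kit, the receptor for stem cell factor, went against the granule genes. It was at 13.6, 7.67, 6.09, 10.4 and 9.80 CPM in WT and 18.3, 14.1, 10.8, 21.7 and 19.7 CPM in KSR23. Only KSR23 replicate 3 lay within the WT range. The means were 9.52 ± 2.87 and 16.9 ± 4.41 CPM (SD, n = 5 each), 1.78-fold apart, with a log2 change of 0.83 (SE 0.33) that missed the threshold (adjusted p = 0.0579 by edgeR likelihood ratio, 0.0612 by quasi-likelihood). It passed when WT replicate 1 (adjusted p = 0.0273), KSR23 replicate 2 (0.0477) or KSR23 replicate 3 (0.0155) was left out, by the same likelihood ratio test. Corrected for length (8911 bases) the log2 change was 0.56 (SE 0.32, adjusted p = 0.263). Across the 10 libraries the log2 levels of Kit had Pearson r of -0.49 to -0.78 with Cpa3 and the 5 proteases, a description that includes the group difference.

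Kit is also made by interstitial cells of Cajal, the pacemaker cells of gut muscle. Of their 4 other markers (Ano1, Etv1, Gpr20 and Prkcq) 0 were called in either direction by edgeR's likelihood ratio test, where 8.76% of all genes were lower and 9.73% higher. With the length correction 0 were called too (7.06% and 7.69% of all genes), and 0 passed at an unadjusted p under 0.05. Their log2 changes were 0.63 (SE 0.35), -0.28 (SE 0.31), 0.67 (SE 0.74) and 0.89 (SE 0.56). The estimates of Gpr20 and Prkcq were near that of Kit with larger SEs, so the missing calls do not show these markers unchanged. The summed level of the 4 was 18.0 to 26.4 CPM in WT and 15.0 to 37.1 CPM in KSR23. The part of these cells in the Kit values was not tested.

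Ms4a2, the beta chain of the high-affinity IgE receptor, was near the counting floor. The WT libraries held 3, 24, 5, 12 and 1 counts of it, against 17, 0, 8, 6 and 4 in the KSR23 libraries, and the log2 change was -0.94 (SE 0.89, adjusted p = 0.514, edgeR likelihood ratio test). With this SE the direction of Ms4a2 is not resolved.

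Of the 2 eosinophil members, Epx had 0 counts in all 10 libraries, which allows up to 3 counts per library, 0.0427 to 0.119 CPM. Counts of Prg2 were 19, 12, 21, 30 and 25 in the WT libraries (0.588, 0.424, 0.771, 0.864 and 0.939 CPM), against 4, 0, 6, 11 and 2 in the KSR23 libraries (0.057, 0, 0.238, 0.195 and 0.056 CPM). All KSR23 values lay below all WT values. The means were 0.717 ± 0.210 and 0.109 ± 0.102 CPM (SD, n = 5 each), 6.56-fold apart, with a log2 change of -2.70 (SE 0.62, adjusted p = 0.00023 by edgeR likelihood ratio, 0.0226 by quasi-likelihood). Corrected for length (838 bases) it was -2.004 (SE 0.61, adjusted p = 0.00962, quasi-likelihood 0.0802), and on replicates 1 to 3 alone -2.62 (adjusted p = 0.184, likelihood ratio). Other granule proteins that define eosinophils, Prg3, Ear6 and Ear10, were also at 0 in all libraries. Ear1 had counts in 2 of the 10 (3 and 4) and Ear2 0 to 8 counts per library, with a log2 change of -0.30 (SE 0.79, not called). Prg2 is thus the only granule protein of the eosinophil genes listed here that reached more than 8 counts in any library, while the eosinophil surface genes Siglecf and Ccr3, described further on, were counted more often.

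**Figure D3:**
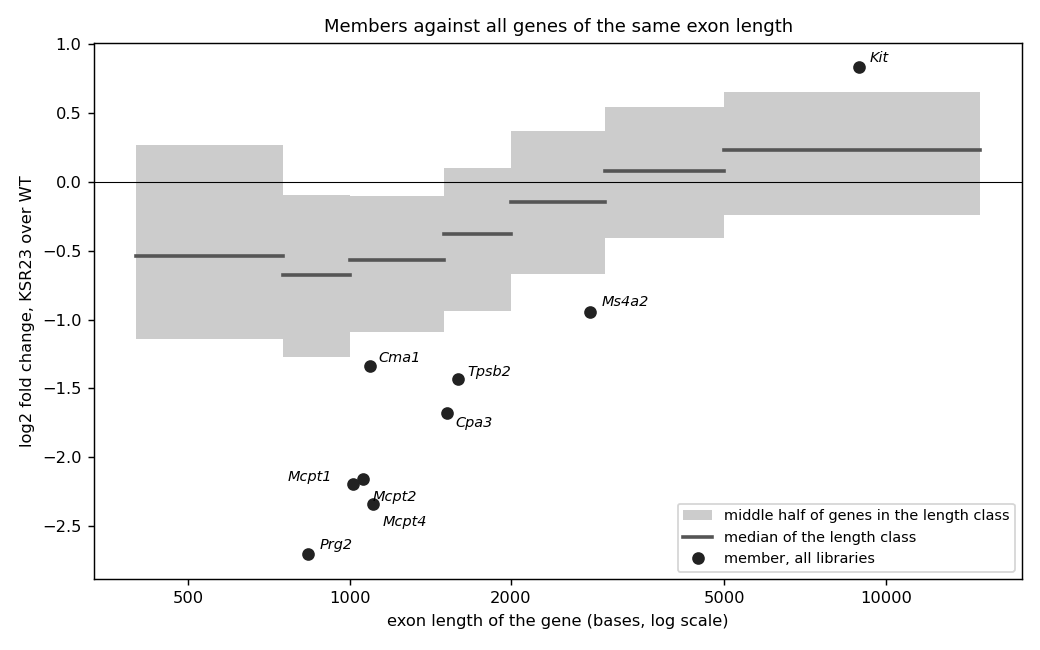
Log2 fold change (KSR23 over WT, vertical) against exon length (bases, log scale) for the 9 tested members (points), with the median (line) and the range from the first to the last quartile (band) of all genes in each length class. The class medians run from -0.68 at 750 to 1000 bases to 0.23 at 5000 or more. The 7 members called lower lie below the band of their class and Kit lies above its band.

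The 4 other lists held 44 genes, all of them in the count tables. The list of growth factors and attractants, which are not markers of mast cells or eosinophils, gave 14 of the 44. Of the 44 genes, 32 had enough counts to test. By the likelihood ratio test 10 were called lower, 3 higher and 19 not called (8.76% and 9.73% of all genes). Growth factors and attractants made up 3 of the 10 lower and 2 of the 3 higher. Corrected for exon length, 5 of the 32 were called lower (Tpsab1, Hpgds, Ccr3, Il4 and Ccl11) and 1 higher (Itgb6), against 7.06% and 7.69% of all genes. On replicates 1 to 3 alone 4 were lower (Tpsab1, Hpgds, Il4 and Ccl11) and 0 higher, against 1.35% and 2.01% of all genes. At an unadjusted p under 0.05, which has no share of all genes beside it, 2 were higher. With the length correction the quasi-likelihood F test called 3 lower (Hpgds, Ccr3 and Ccl11) and 0 higher, against 4.99% and 5.9% of all genes. At an unadjusted p under 0.05, again without a share of all genes, it had 3 higher.

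Among 8 tested granule proteins and mediator enzymes 3 were lower and 5 not called. Hpgds, the enzyme that makes prostaglandin D2, was at 67.2 to 150 CPM in WT and 6.58 to 27.6 CPM in KSR23. Its WT mean of 114 CPM was far above those of Mcpt1 (12.2) and Cpa3 (5.53), and which cells its counts came from was not tested. The log2 change of Hpgds, -2.61 (SE 0.38, adjusted p = 1.02e-08, edgeR likelihood ratio test), was -2.86 after the length correction (6425 bases, adjusted p = 3.86e-09). The correction moved the log2 changes of long genes downward (Kit, 8911 bases, from 0.83 to 0.56), so the larger corrected fall of Hpgds goes with its length. The tryptase Tpsab1 was counted 46, 8, 149, 4 and 1 times in the WT libraries against 5, 6, 5, 2 and 4 times in the KSR23 libraries, so that its log2 change of -3.58 (SE 1.02, adjusted p = 0.0104, likelihood ratio) depended on WT replicate 3. Without that library the log2 change was -1.95 (adjusted p = 0.168, likelihood ratio). With the length correction the quasi-likelihood F test gave Tpsab1 an adjusted p of 0.072. Ltc4s, leukotriene C4 synthase, was called lower (log2 change -1.78, adjusted p = 0.0223) and lost the call with the length correction (adjusted p = 0.207, likelihood ratio). It also lost the call without WT replicate 2 or 3 or KSR23 replicate 1, 4 or 5 (adjusted p = 0.0526 to 0.125). Histidine decarboxylase (Hdc), which makes histamine, and Slc18a2, the transporter that loads it into granules, had log2 changes of 0.45 and 0.41 and were not called (adjusted p = 0.571 and 0.406, likelihood ratio). Tpsg1, a membrane-anchored tryptase, and Alox5, 5-lipoxygenase, were not called either, at -0.24 and -0.52 on the log2 scale, and with the length correction (1389 bases) Tpsg1 was at 0.31 (adjusted p = 0.693, likelihood ratio).

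**Figure D4:**
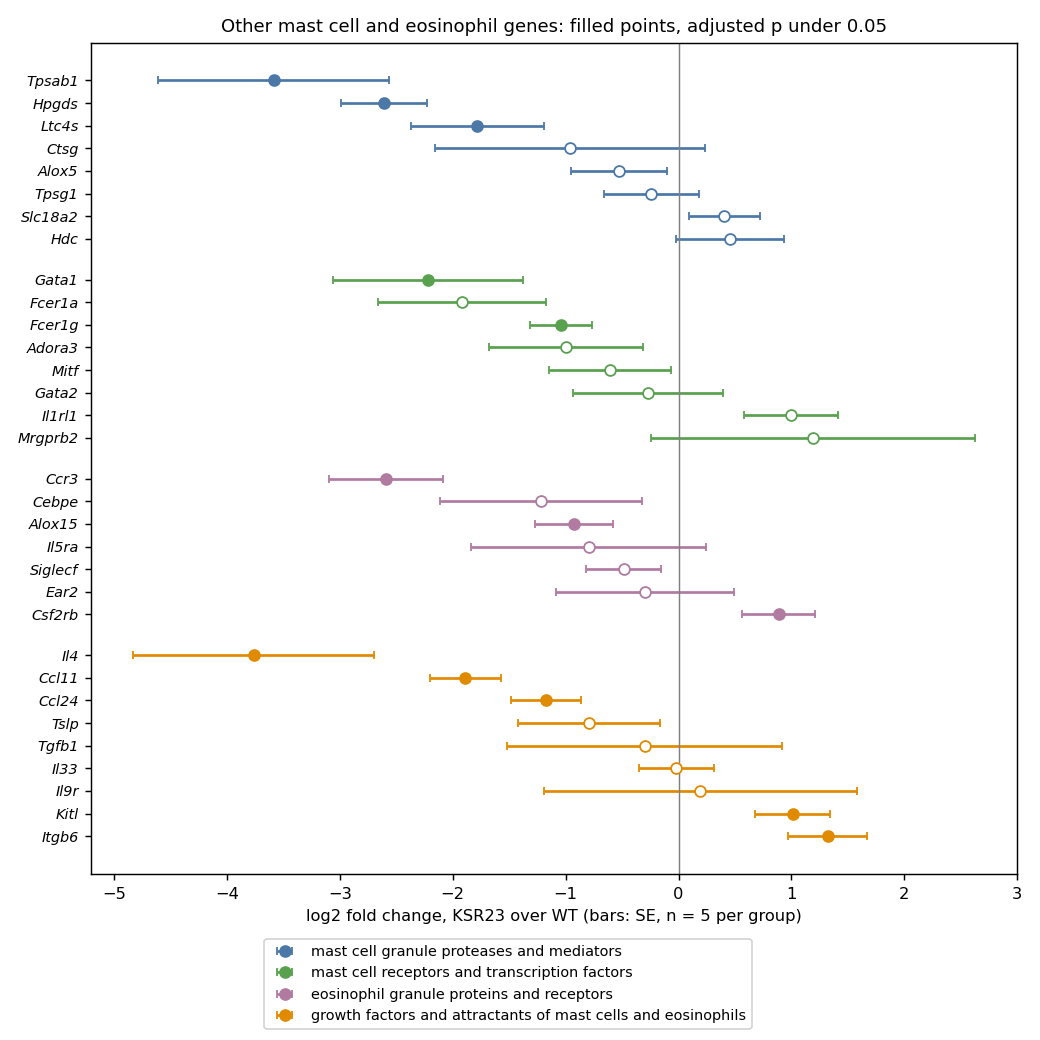
Log2 fold change (KSR23 over WT) with its SE for the 32 tested genes of the 4 other mast cell and eosinophil lists, coloured by list, with filled points where the adjusted p was under 0.05. The 10 filled points at the left include Hpgds, Ccr3 and Ccl11, and the 3 at the right are Csf2rb, Kitl and Itgb6.

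Among 8 tested receptors and transcription factors 2 were lower and 6 not called. Fcer1a, the IgE-binding alpha chain of the IgE receptor, was counted 26, 8, 16, 11 and 12 times in the WT libraries against 1, 5, 5, 1 and 10 times in the KSR23 libraries. Its CPM values did not overlap between the groups, the nearest being 0.2829 in WT replicate 2 and 0.2823 in KSR23 replicate 5, and its log2 change of -1.92 (SE 0.75) missed the threshold (adjusted p = 0.0569 by likelihood ratio, and 0.205 after the length correction). Fcer1g, the signalling chain of the IgE receptor that many myeloid cells share, fell from 68.2 ± 11.8 to 33.2 ± 7.42 CPM (SD, n = 5 each), a log2 change of -1.04 (SE 0.27, adjusted p = 0.00213, edgeR likelihood ratio test) that was -0.37 (adjusted p = 0.34) after the length correction (874 bases). Gata1, which drives mast cell and eosinophil genes, was called lower on 0 to 27 counts per library (log2 change -2.22, adjusted p = 0.0448, likelihood ratio; 0.0751 with the length correction), and lost the call when any library but WT replicate 2 or KSR23 replicate 5 was left out (adjusted p = 0.0661 to 0.192). Il1rl1, the IL-33 receptor, was at 23.6 ± 11.1 CPM in WT and 47.1 ± 19.3 CPM in KSR23 (SD, n = 5 each) and missed the threshold (log2 change 0.995, adjusted p = 0.0828, likelihood ratio). Gata2 and Adora3 were not called, at -0.27 and -0.998 on the log2 scale.

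Among 7 tested genes of the eosinophil list (granule protein Ear2, receptors, enzymes and the transcription factor Cebpe) 2 were lower, 1 higher and 4 not called. Ccr3, the eotaxin receptor of eosinophils, was counted 146, 70, 91, 113 and 55 times in the WT libraries against 43, 1, 23, 25 and 21 times in the KSR23 libraries. The groups did not overlap in CPM, and the means were 3.13 ± 0.943 and 0.519 ± 0.321 (SD, n = 5 each). Its log2 change was -2.59 (SE 0.51, adjusted p = 2.81e-05, edgeR likelihood ratio test) and -2.60 after the length correction (3272 bases, adjusted p = 9.8e-05). On replicates 1 to 3 alone it was -2.69 and missed the threshold (adjusted p = 0.0744, likelihood ratio). Siglecf, a lectin of eosinophils, listed in the files under the older symbol Siglec5, was not called, at 1.57 ± 0.278 CPM in WT and 1.11 ± 0.298 CPM in KSR23 (SD, n = 5 each, log2 change -0.49, adjusted p = 0.336, edgeR likelihood ratio test). Csf2rb, the shared beta chain of the IL-3, IL-5 and GM-CSF receptors, was higher (0.89, adjusted p = 0.038) and Alox15, a lipoxygenase of eosinophils and macrophages, lower (-0.93, adjusted p = 0.0441), and neither passed after the length correction (adjusted p = 0.202 and 0.154, likelihood ratio). Csf2rb lost its call without WT replicate 2, 3, 4 or 5 or KSR23 replicate 3 or 5 (adjusted p = 0.053 to 0.13), and Alox15 without any library but WT replicate 3 or KSR23 replicate 3 (0.0637 to 0.175).

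Among 9 tested growth factors and attractants 3 were lower, 2 higher and 4 not called. Ccl11 (eotaxin-1) was at 183, 159, 169, 168 and 169 CPM in WT and 29.2, 31.2, 75.9, 34.4 and 58.9 CPM in KSR23. The groups were far apart, with a log2 change of -1.89 (SE 0.31, adjusted p = 2.85e-07, edgeR likelihood ratio test) and of -1.31 (adjusted p = 0.000387) after the length correction (1082 bases). Ccl24 (eotaxin-2) fell from 82.6 ± 14.8 to 36.6 ± 13.9 CPM (SD, n = 5 each), a log2 change of -1.18 (SE 0.31, adjusted p = 0.00226), which was -0.63 (adjusted p = 0.134, edgeR likelihood ratio test) after the correction (1295 bases). Il4, the type 2 cytokine, was counted 14, 28, 14, 6 and 8 times in the WT libraries against 0, 0, 0, 8 and 0 times in the KSR23 libraries (adjusted p = 0.00405, edgeR likelihood ratio test, and 0.0214 with the correction), where KSR23 replicate 4 held all counts of its group.

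Kitl, which encodes stem cell factor, rose from 35.1 ± 8.92 to 70.6 ± 25.7 CPM (SD, n = 5 each), a log2 change of 1.01 (SE 0.33, adjusted p = 0.0191, edgeR likelihood ratio test) that missed the threshold after the length correction (5911 bases, 0.79, adjusted p = 0.127), without WT replicate 3 (adjusted p = 0.0649) and without KSR23 replicate 5 (0.0736). Itgb6, the epithelial integrin chain that activates the growth factor TGF-beta, was at 34.7 ± 6.70 and 86.7 ± 42.0 CPM (SD, n = 5 each) and had a log2 change of 1.32 (SE 0.35, adjusted p = 0.00267, edgeR likelihood ratio test). With the length correction it was 1.08 (adjusted p = 0.0288 by likelihood ratio, 0.0588 by quasi-likelihood), and on replicates 1 to 3 alone 1.37 (adjusted p = 0.272, likelihood ratio). Il33, an alarmin that acts on mast cells, was at 17.3 ± 4.99 CPM in WT and 17.1 ± 4.82 CPM in KSR23 (SD, n = 5 each, log2 change -0.019 with an SE of 0.33) and was not called. Tgfb1, the growth factor itself, ranged from 0 to 3.96 CPM in WT and from 0 to 4.01 CPM in KSR23 and was not called (log2 change -0.30, SE 1.22). Il3, Il13 and Il25 had 0 counts in every library.

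**Figure D5:**
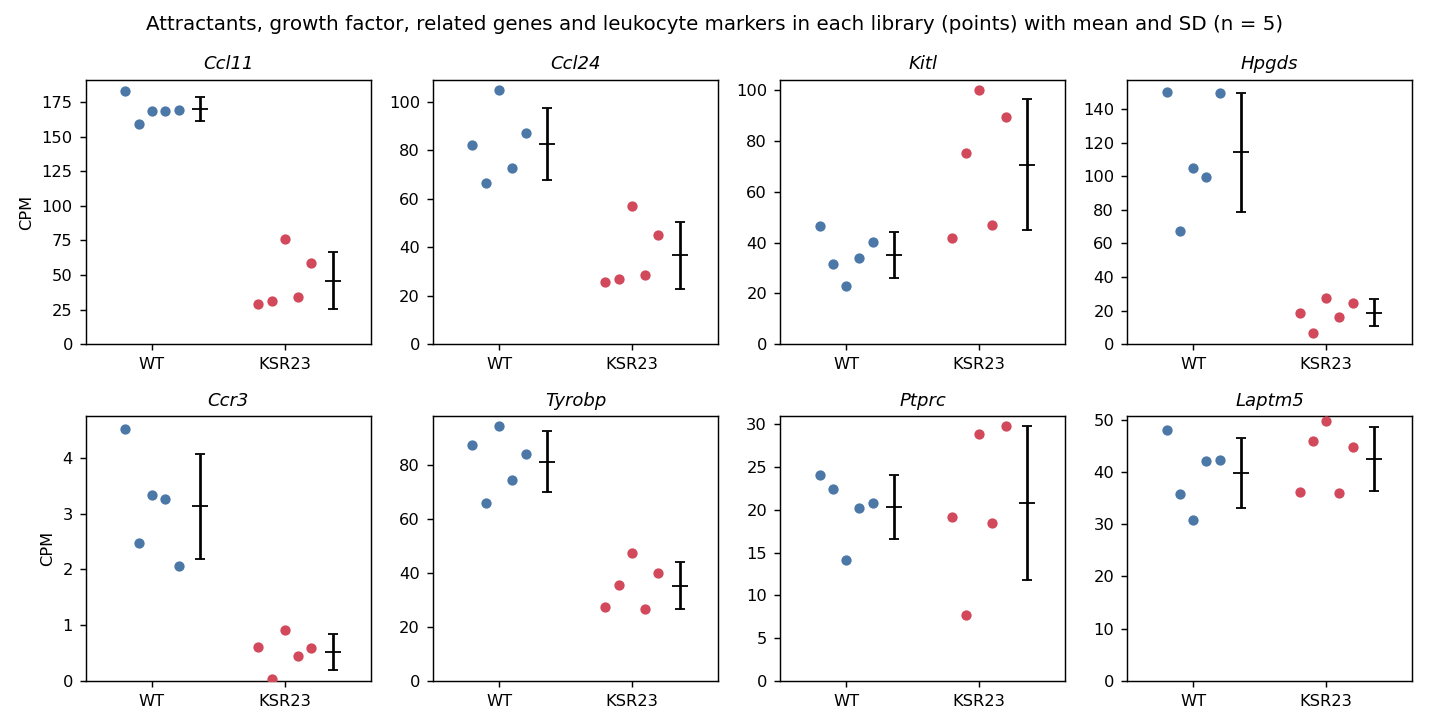
CPM (linear axes from 0) of the attractants Ccl11 and Ccl24, the growth factor Kitl, the related genes Hpgds and Ccr3 and the leukocyte markers Tyrobp, Ptprc and Laptm5 in the 5 WT and 5 KSR23 libraries, with mean and SD. Ccl11, Ccl24, Hpgds, Ccr3 and Tyrobp points do not overlap between the groups, and Ptprc and Laptm5 points do.

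Markers of other cells in the jejunum wall moved unevenly beside the members. Of 6 pan-leukocyte markers, Tyrobp (667 bases) and Cd52 (1187 bases) were called lower, at -1.20 and -1.25 on the log2 scale, and neither passed after the length correction (adjusted p = 0.181 and 0.137, edgeR likelihood ratio test). Ptprc (CD45), Cd53, Coro1a and Laptm5 were not called, with log2 changes of 0.03, -0.31, -0.33 and 0.10, and the summed level of the 6 was 224 to 262 CPM in WT and 139 to 202 CPM in KSR23. Of 3 basophil markers, Mcpt8, a basophil protease, was called lower (log2 change -1.26, adjusted p = 0.0488, likelihood ratio, and 0.396 with the correction). That call was lost without any 1 library other than WT replicate 1 or KSR23 replicate 3 (0.0937 to 0.15). The other markers, Cd200r3 and Il3ra, had log2 changes in the other direction, 1.30 and 0.46, and were not called (adjusted p = 0.375 and 0.809, likelihood ratio). The neutrophil and promyelocyte list was mixed, with 2 of 9 tested genes higher (Ltf and Elane) and 2 lower (Ngp and Retnlg), and a summed level of 27.0 to 35.8 CPM in WT and 22.5 to 61.1 CPM in KSR23. Elane was counted 0 times in WT and 0 to 7 times in KSR23, and lost its call by quasi-likelihood (adjusted p = 0.0838) and DESeq2 (0.126). S100a8 and S100a9 were not called (log2 changes 0.08 and 0.42), and with the length correction S100a9 was called higher (1.20, adjusted p = 0.022 by likelihood ratio, 0.051 by quasi-likelihood), while Ltf, Elane, Ngp and Retnlg kept their calls by likelihood ratio.

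The layers of the gut wall showed 1 call in each list tested. Acta2 was called lower among 6 smooth muscle markers (-0.77 on the log2 scale, summed level 1612 to 3666 CPM in WT and 1681 to 2269 in KSR23) and Cdh1 higher among 5 epithelial markers (1.11, summed level 1214 to 3917 and 1881 to 4836 CPM). In the list for mesenteric fat and mesothelium, Cidec was called lower, and the summed level was 588 to 654 CPM in WT and 273 to 462 CPM in KSR23. The fat-defining Adipoq and Lep were at 0 in all libraries and Plin1 had 0 to 5 counts, so this sum cannot be read as a level of fat. Cidec alone made up 575 to 602 CPM of the sum in WT and 254 to 428 CPM in KSR23. The mesothelial genes Msln, Upk3b and Wt1 were not called (log2 changes -0.13, -0.27 and -0.22). Among smooth muscle markers Myh11, Actg2, Des, Tagln and Cnn1 were not called (0.61, -0.31, 0.19, -0.57 and -0.58), nor among epithelial markers Epcam, Vil1, Krt8 and Cldn7 (-0.44, 0.68, 0.83 and 0.10). Acta2 and Cidec were not called after the length correction (adjusted p = 0.233 and 0.194, likelihood ratio), and Acta2 and Cdh1 lost their calls when any of several single libraries was left out (adjusted p = 0.0631 to 0.135 in 7 of 10 fits for Acta2, and 0.0592 to 0.0976 in 5 of 10 for Cdh1). The part of these values in the member results was not tested.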

How the data were processed

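Per the labels and the study's methods, the authors amplified poly(A) RNA from 100 pg of total RNA with an oligo-dT kit (SMART-Seq v4), made Nextera XT libraries without molecular identifiers, sequenced 75-base single-end reads, aligned them to mm10 with TopHat2 (2.1.0) and counted them per gene with HTSeq (0.6.1p1, strict intersection). The deposited values are raw counts per gene. The strand setting was not given in the sources used here. Rows that name no gene (not unique, no feature, ambiguous), 27.9% to 35.2% of all tallied reads, stayed out of library totals.

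Genes that reached 5 counts in any library (17632 of 24062) were scaled by TMM and tested by edgeR (4.0.16, in R 4.3.3) with the likelihood ratio test the study used, adjusted by Benjamini-Hochberg over all genes kept. The quasi-likelihood F test, DESeq2 (1.42.0), other scalings and filters, the replicate block and subsets of libraries were alternatives. CPM are TMM-scaled. Exon length is the number of bases covered by exons of any GENCODE M21 transcript (94.96% of tested genes matched). In the length correction, a lowess curve of log2 CPM on log2 exon length fitted on genes with a mean of 1 CPM or more was removed from each library as an offset. Length classes hold genes with a mean of 0.1 CPM or more. Code was tested on simulated counts. Intervals and floors of 3 counts cover counting error only. The study calls the 5 libraries of a group biological replicates, and the labels only number them.

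The members and lists were chosen with earlier results of these data known, and the length correction and the quasi-likelihood F test on replicates 1 to 3 alone were added after the data were seen. All members are named, and of the other lists the genes that were called or had a mean above 1 CPM, with a few others chosen after their values were seen.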

Additional observations from a re-analysis of the deposited data

Results flagged for a closer look

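In 18 groups of 5 values (9 members in each genotype), 2 had a library that stood apart by Dixon's criterion (gap to the nearest value over the range above 0.71), and chance marks about 1 in 20 groups. Both were WT replicate 2. Mcpt2 was at 7.96 CPM there (225 counts, gap over range 0.753) and Mcpt4 at 0.672 CPM (19 counts, 0.758), each the lowest WT value. The lower level of both genes in KSR23 was called without this library as well as with it.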

How the results depend on the processing

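No result past its threshold reversed, and every member estimate kept its sign under its 20 or 21 alternatives, which ranged from -2.28 to -1.57 for Mcpt1 and from -1.51 to -0.72 for Cma1 on the log2 scale. Calls were less stable. Mcpt1 and Mcpt2 were called lower in 20 of 21 alternatives, Cpa3 in 19 of 21, Mcpt4 and Prg2 in 17 of 20, Cma1 in 11 of 21 and Tpsb2 in 9 of 21. Kit was called higher in 3 of 21 and Ms4a2 in 0 of 20. Of the 7 members called lower, those that lost the call when 1 library was left out were Cma1 and Tpsb2.

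With replicates 1 to 3 alone, 3 members were lower, 4 pathway genes lower and 0 higher, and 346 of all genes rose and 233 fell. On those libraries the quasi-likelihood F test called 0 members, 0 pathway genes lower and 0 higher, and had 99 of all genes rising and 41 falling. With the length correction 5 pathway genes were lower and 1 higher, and the quasi-likelihood F test with it called 2 members lower, 3 pathway genes lower and 0 higher, and 1041 genes higher and 879 lower. Requiring 5 counts in every library, which left 13181 genes to test, gave 6 pathway genes lower. Leaving out 1 library at a time, 0 to 1 members were higher, 5 to 7 lower, and 1 to 4 pathway genes higher. The cause of the other changes was not tested. Among listed genes that were not called, Tpsg1, Ear2, Il33, Ptprc, Cd53 and Actg2 changed sign with the length correction, and Ear2, Il33, S100a8, S100a9, Ptprc, Cldn7, Msln and Wt1 on replicates 1 to 3 alone.

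Replicate numbers are shared between the groups without a label that pairs them. Deviations of same-numbered libraries had r of -0.75 to 0.52, and 1 of 5 WT libraries correlated best with its own number. With the replicate block 6 members were lower, 1 pathway gene was higher, and 1082 genes were higher. Counts per library were low for Ms4a2 (0 to 24) and Prg2 (0 to 30) and 0 for Epx.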
